A study of Mus musculus with 29 samples.

Results

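Chromatin immunoprecipitation followed by sequencing (ChIP-seq) of Gfi1, Pou4f3 and Atoh1 in the iGPA line gave 42185 joined genomic sites, and 207 of these held a Gfi1 and a Pou4f3 peak but no Atoh1 peak. The 207 sites were chosen by the measured peak calls themselves: windows of 300 bp on the summits of the 3 iGPA lists were joined wherever they shared at least 1 bp, and sites with Gfi1 and Pou4f3 and without Atoh1 were kept. They made up 6.89% of the 3003 Gfi1 sites, 1.11% of the 18725 Pou4f3 sites and 29% of the 715 sites that held both factors. Among the other sites with either factor, 1484 held Gfi1 alone, 804 Gfi1 with Atoh1, 508 all 3 factors, 14563 Pou4f3 alone and 3447 Pou4f3 with Atoh1. These counts are fixed by the choice and carry no test.

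The cells were mouse embryonic stem cell lines in which doxycycline switches on an added cassette: iGPA carries Gfi1, Pou4f3 and Atoh1, iPou4f3 carries Pou4f3, iG+P carries Gfi1 and Pou4f3, iP+A carries Pou4f3 and Atoh1, iAtoh1 carries Atoh1 and iG+A carries Gfi1 and Atoh1. Embryoid bodies (aggregates of differentiating stem cells) of every line received 2 µg/ml doxycycline for 48 h and were taken at day 6, so no uninduced ChIP enters the comparisons below. Pou4f3 was pulled down through a MYC tag and Atoh1 through a FLAG tag on the induced proteins, and Gfi1 with an antibody against the protein. The cassettes also encode a fluorescent reporter, each line came from picked colonies, and the ChIP protocol lists no sorting step, so the share of induced cells behind each list is not known here. Of 29 libraries, 17 were ChIP and 12 input. Each peak list was called by the authors on merged replicates, the Gfi1 list on 1 library, so no value has a replicate error, sites are not replicates, and the intervals given are exact 95% Clopper-Pearson intervals for counting error only. Whether intervals overlap is stated as a description. An overlap does not show that shares are equal, and a gap between intervals is not a test.

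Gfi1 is a zinc finger repressor that recruits histone-modifying corepressors through its SNAG domain. It is known from blood formation and is required for hair cells, the mechanosensory cells of the inner ear. Pou4f3 is a POU-homeodomain factor that binds AT-rich sites and is needed for hair cells to mature and survive. Atoh1 is the basic helix-loop-helix factor that starts hair cell formation and binds E-boxes. A POU factor reads its site through a bipartite DNA-binding domain, whereas Gfi1 recognises a short AATC core through its zinc fingers.

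The sequences under the peaks are shown first, for sites close to transcription starts and for sites away from them, because the 2 groups differed in the letters at their summits. Sites outside repeats come first, given from 60 bp left of one summit to 60 bp right of the other. Capitals mark matches to the Pou4f pattern ATAATTAAT with at most 1 mismatch, or to the Gfi1 patterns AATCACTGC and AATCACAGC, on either strand. The sites shown first each held a match and do not stand for the 207 sites, most of which held neither pattern. The Gfi1 pattern was at 6 of 91 sites near starts (6.59%) and at 5 of 116 farther away (4.31%). The Pou4f pattern was at 17 of 91 and 56 of 116.
Pou4f1: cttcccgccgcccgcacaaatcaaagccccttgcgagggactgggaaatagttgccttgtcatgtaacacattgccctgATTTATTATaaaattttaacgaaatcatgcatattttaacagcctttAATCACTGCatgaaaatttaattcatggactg
Id2: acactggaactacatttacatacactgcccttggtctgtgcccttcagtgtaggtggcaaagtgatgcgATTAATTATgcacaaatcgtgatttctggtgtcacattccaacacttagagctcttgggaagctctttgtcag
Ebf3: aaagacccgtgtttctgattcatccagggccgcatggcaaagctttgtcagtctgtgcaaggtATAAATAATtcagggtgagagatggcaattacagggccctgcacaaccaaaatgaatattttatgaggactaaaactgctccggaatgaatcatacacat
4930485B16Rik: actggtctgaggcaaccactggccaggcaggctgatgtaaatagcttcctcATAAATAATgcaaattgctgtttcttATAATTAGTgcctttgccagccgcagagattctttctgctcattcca
Ppp2r3a: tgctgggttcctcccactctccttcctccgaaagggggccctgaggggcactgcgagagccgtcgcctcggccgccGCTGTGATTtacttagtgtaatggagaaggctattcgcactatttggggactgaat
Pogz: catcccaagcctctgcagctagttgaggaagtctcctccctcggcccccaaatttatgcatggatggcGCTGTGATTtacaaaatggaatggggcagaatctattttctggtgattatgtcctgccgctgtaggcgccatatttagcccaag
All sequences are 5′ to 3′ on the plus strand of mm9, read from the NCBIM37 assembly. The Pou4f1 stretch (chr14:104872654-104872811) is intergenic, 5498 bp upstream of the start of Pou4f1, the close relative of Pou4f3 in sensory neurons. It was shown because it held both patterns: the Pou4f match was centred 14 bp from the Pou4f3 summit and 23 bp from the Gfi1 summit, and the Gfi1 match 33 bp from the Pou4f3 summit and 70 bp from the Gfi1 summit. The Id2 stretch (chr12:25781698-25781839) is intergenic, 801 bp upstream of Id2, an inhibitor of helix-loop-helix factors, and its Pou4f match lay 8 bp from the Pou4f3 summit and 13 bp from the Gfi1 summit. The Ebf3 stretch (chr7:144436628-144436790) is in an intron of that neuronal transcription factor, 22533 bp into the gene. The site nearest to 4930485B16Rik (chr10:92546502-92546625) is intergenic and held 2 Pou4f matches on either side of summits only 3 bp apart. The Ppp2r3a stretch (chr9:101154238-101154369), 136 bp upstream of a phosphatase regulatory subunit gene, and the Pogz stretch (chr3:94642245-94642396), in an intron 670 bp into a chromatin-linked zinc finger gene, held a Gfi1 match and no Pou4f match.

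A further 3 sites are shown because of repeated letters: Rgs9 and Panx1 lay in tandem repeats, and Gemin5, which did not meet the repeat definition used below, held shorter runs.
Gemin5: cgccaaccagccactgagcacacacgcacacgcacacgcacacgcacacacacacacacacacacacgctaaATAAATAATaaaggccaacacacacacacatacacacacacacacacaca
Rgs9: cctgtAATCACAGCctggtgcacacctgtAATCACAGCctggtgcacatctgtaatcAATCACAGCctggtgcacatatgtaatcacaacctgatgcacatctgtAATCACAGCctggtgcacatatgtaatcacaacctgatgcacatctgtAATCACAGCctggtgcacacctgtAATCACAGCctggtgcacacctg
Panx1: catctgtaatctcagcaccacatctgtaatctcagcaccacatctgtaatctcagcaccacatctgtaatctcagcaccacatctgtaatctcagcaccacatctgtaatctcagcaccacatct
Gemin5 encodes a subunit of the complex that assembles spliceosomal particles. Its site (chr11:57982183-57982304), intergenic and 203 bp upstream, held 1 Pou4f match between runs of mostly alternating cytosine and adenine. The Rgs9 stretch (chr11:109123328-109123527), in an intron of a regulator of G-protein signalling, repeated a unit of 24 bp and held 6 exact Gfi1 matches. The Panx1 stretch (chr9:14840122-14840246), in an intron of a membrane channel gene, repeated a unit of 20 bp. It held no exact Gfi1 match but 6 stretches that were 1 mismatch away from one.

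By annotation of the Gfi1 summit, 86 of the 207 sites were intronic, 83 intergenic, 26 in a UTR, 7 in a coding exon and 5 in an exon of a noncoding transcript. A transcription start lay within 1 kb of 91 sites, which is 44% (37.1 to 51), against 36.1% of all Gfi1 sites. The share was 43.4% (40.9 to 46) for Gfi1 alone, 17.7% (14.5 to 21.3) where all 3 factors met and 10.5% (9.96 to 11) for Pou4f3 alone. With −log10 p of at least 10 in every list the share at the Gfi1 and Pou4f3 sites was 28.9%, and it was not computed for the other classes at that setting. The other 116 sites lay over 1 kb from a start, 71 of them over 10 kb and 9 over 100 kb. Chromosomes 1, 5 and 11 held 22, 19 and 17 sites, and the sex chromosomes held 0. Neighbouring sites on a chromosome were a median of 5785855 bp apart, and 6 of 188 such gaps were under 100 kb. The sites had 200 nearest gene names, and 5 names recurred, among them the RNA families SNORA17 and U6, whose name is shared by many loci. Med13l, a subunit of the Mediator kinase module, was nearest to 3 sites. Sp3, a GC-box factor, had 2 sites 69 and 421 bp from its start, and BC042782 had 2, 1 of them in the coding exon of Jun.

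Base composition separated the 2 groups. In the 250 bp around the Gfi1 summit the median GC content was 58% within 1 kb of a start and 43.6% farther away, and the median number of CpG dinucleotides was 18 against 3. At least 10 CpG were present at 62 of 91 sites near starts (68.1%, 57.5 to 77.5) and at 8 of 116 farther away (6.9%, 3.02 to 13.1). For Gfi1 alone near starts the share was 62.9% (59 to 66.6), an overlapping interval.

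The Pou4f pattern was present in the 250 bp around the Pou4f3 summit at 73 of 207 sites (35.3%, 28.8 to 42.2), against 54.6% of all Pou4f3 sites, 60.1% (59.3 to 60.9) for Pou4f3 alone and 35.2% (31.1 to 39.6) where all 3 factors met. Windows of the same length 1000 bp to either side held it in 39 of 414 cases (9.42%, 6.78 to 12.7). It was present at 17 of 91 sites near starts (18.7%, 11.3 to 28.2) and at 56 of 116 farther away (48.3%, 38.9 to 57.7), with 10.4% (6.4 to 15.8) and 8.62% (5.35 to 13) in the flanks. Pou4f3 alone had 30.7% (28.4 to 33.1) and 63.5% (62.7 to 64.4), so both groups of sites lay below Pou4f3 alone at the same distance class. The 73 matches nearest to a Pou4f3 summit lay a median of 20.5 bp from it. A match in the 250 bp around the Gfi1 summit was found at 52 sites, at a median of 33.5 bp, farther than from the Pou4f3 summit. At Gfi1 summits the share was 25.1% (19.4 to 31.6), against 31.5% (27.5 to 35.7) where all 3 factors met and 5.39% (4.3 to 6.66) for Gfi1 alone. The joining rule leaves no Pou4f3 summit close to the sites of Gfi1 alone, so the contrast with them is not independent of the choice.

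The exact Gfi1 pattern was rare. It was present in the 250 bp around the Gfi1 summit at 11 sites (5.31%, 2.68 to 9.31), against 6.99% of all Gfi1 sites and 9.91% (8.43 to 11.5) for Gfi1 alone. It occurred in 0 of 414 flanking windows, which allows a share of up to 0.725% if 3 windows are taken as the limit of a count of 0, and up to 0.887% by the exact interval. The 11 sites were nearest to Camk1g, Spred1, Pogz, Ttc9b, Akap13, Sesn3, Ppp2r3a, Rgs9, a 5S_rRNA on chromosome 12, Gm17259 and Pou4f1, and 6 of them lay within 1 kb of a start. Of these, 3 sites also had the Pou4f pattern: Camk1g, the 5S_rRNA and Pou4f1. Where present, the match was centred a median of 57.5 bp from the Gfi1 summit, against 24.5 bp for Gfi1 alone. The shorter letters AAATCA, which hold the AATC core and were chosen after the values were seen, were present at 75 of 207 Gfi1 summits (36.2%, 29.7 to 43.2) and in 17.1% (13.6 to 21.1) of the flanks. They marked 45.7% (36.4 to 55.2) of the sites away from starts, as in Gfi1 alone (45.8%, 42.4 to 49.3), but 24.2% (15.8 to 34.3) of those near starts, where Gfi1 alone had 42.5% (38.7 to 46.5). Where all 3 factors met, the letters were at 24.2% (20.5 to 28.2) of the Gfi1 summits and in 20.3% (17.8 to 22.9) of the flanks. Split by distance, these sites had 13.3% (7.08 to 22.1) near starts and 26.6% (22.4 to 31.1) away from them. Gfi1 with Atoh1 had 22.1% (17.2 to 27.7) and 29.1% (25.3 to 33.1). A share near starts below that of Gfi1 alone was thus not particular to the Gfi1 and Pou4f3 sites.

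**Figure D1:**
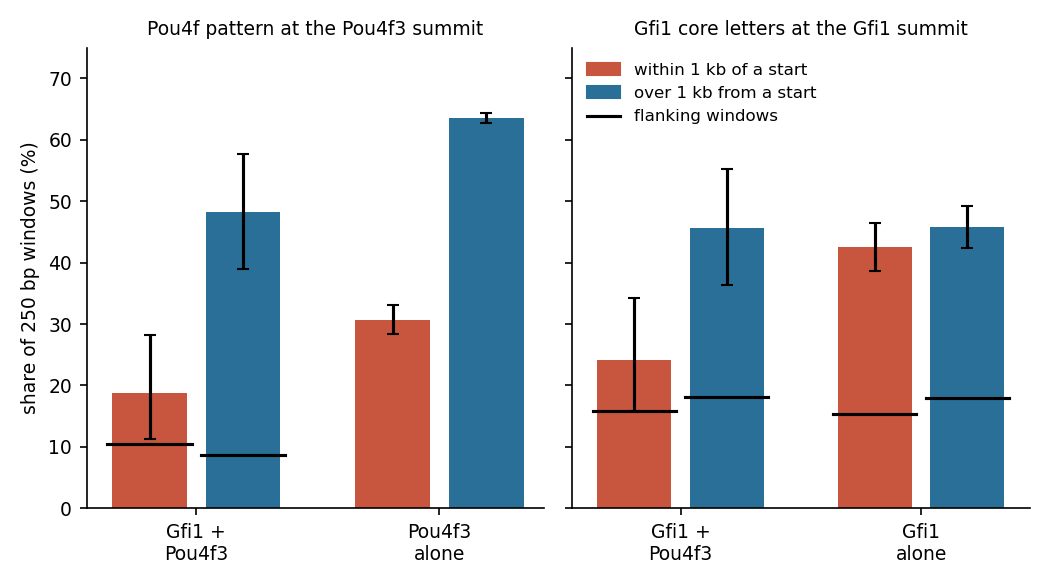
Share of 250 bp windows that hold the Pou4f pattern at the Pou4f3 summit (left) and the Gfi1 core letters at the Gfi1 summit (right), for sites within 1 kb of a start (red) and farther away (blue), with 95% exact binomial intervals; black lines give the windows 1000 bp to either side, drawn on the left for the Gfi1 and Pou4f3 sites only. Both shares were higher away from starts at the Gfi1 and Pou4f3 sites, 48.3% against 18.7% and 45.7% against 24.2%.

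The E-box in the extended form preferred by Atoh1 (the AtEAM pattern of the study) was at 5 of the 207 Gfi1 summits (2.42%, 0.789 to 5.55). The share was 1.21% (0.393 to 2.8) in the flanks and 1.68% (1.09 to 2.48) for Gfi1 alone, with overlapping intervals. It was 7.79% of all Gfi1 sites and 15.9% (12.9 to 19.4) where all 3 factors met. Those groups include sites with an iGPA Atoh1 peak, which the rule left out here, so the lower share follows the choice. The 5 of the 207 sites with the E-box were nearest to Ogfrl1, Gm13620, Sp3, Atxn7l3b and Atpaf2. Tandem repeats with a unit of at most 12 bp lay at 3 Gfi1 summits (1.45%, 0.3 to 4.18), near Med13l, Prdm1 and 4930534B04Rik, against 5.36% of all Gfi1 sites and 9.43% (7.99 to 11) for Gfi1 alone. With units of up to 40 bp, chosen after the sequences above were seen, 7 sites qualified (3.38%, 1.37 to 6.84), Panx1 and Rgs9 among them, against 11.7% (10.1 to 13.4) for Gfi1 alone.

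Peak heights were used to call the members and are given as a description. Fold enrichment, the ratio of ChIP fragments at a summit to the local background, had a median of 4.4 for Gfi1 (range 2.45 to 124) and 3.93 for Pou4f3 (2.44 to 30.3). Gfi1 folds were alike near starts and away from them, with medians of 4.18 and 4.4, whereas the Pou4f3 medians were 3.5 and 4.51. Sites with the Pou4f pattern had a median Pou4f3 fold of 5.1 and those without it 3.5.

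**Figure D2:**
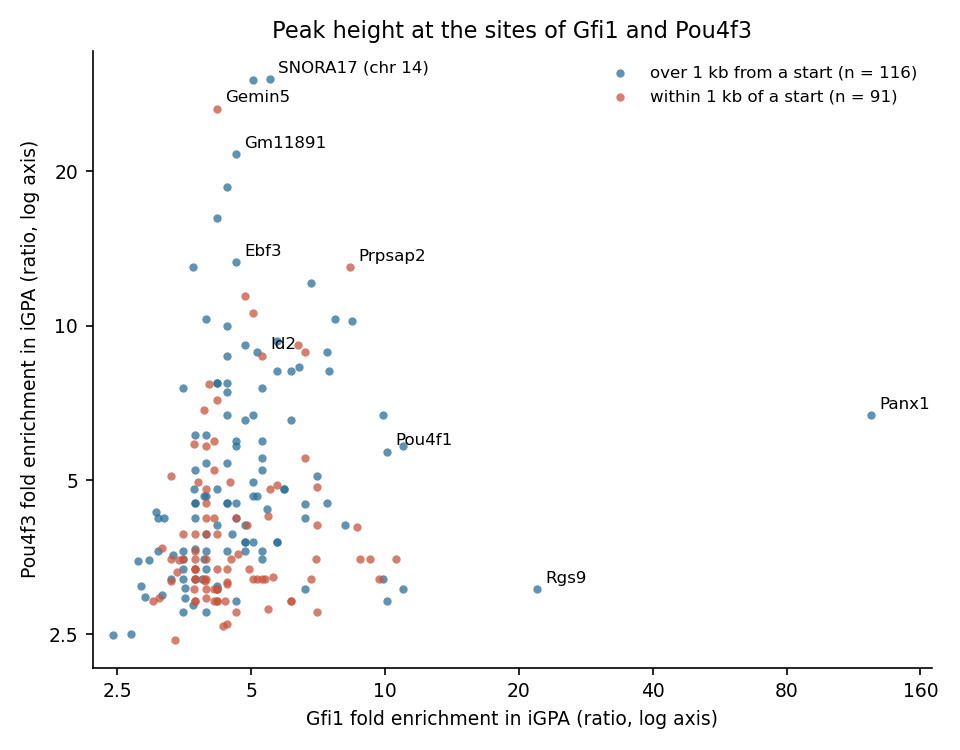
Gfi1 fold against Pou4f3 fold at each of the 207 sites in iGPA, both on log axes, coloured by distance to the nearest transcription start. The 10 sites highest for Pou4f3 (up to 30.3) had Gfi1 folds of 3.7 to 8.36, and Panx1 (124) and Rgs9 (22) stood apart on the Gfi1 axis with Pou4f3 folds of 6.7 and 3.06.

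The highest Gfi1 peak was the repeat in the Panx1 intron (chr9:14840032-14840335), with a fold of 124, and Rgs9 followed with 22. Both lay in the repeated sequence shown above, and at Panx1 an iGPA Atoh1 peak of fold 3.69 had been called but was not among the kept peaks. The part of repeats in these heights was not tested. Next came Epc2, a subunit of a histone acetyltransferase complex, with a fold of 11. Prdm1, a zinc finger repressor, also had 11, at a site 32730 bp upstream with a repeat unit of 10 bp. Ppp2r3a had 10.6, 1700003E16Rik 10.1, Pou4f1 10.1, the ephrin receptor gene Epha6 9.9, the kinase gene Pim1 9.9 and Fam135a 9.68. Within 1 kb of a start, Ppp2r3a and Fam135a were followed by Snord118 (9.24), Zfp91 (8.8), Ccng2, a cyclin gene (8.66), Prpsap2 (8.36), BC042782 (7.04), 2700089E24Rik (7.04), Ash2l, a subunit of a histone H3K4 methyltransferase complex (7.04), and Pogz (7).

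The 10 highest Pou4f3 peaks were intergenic or intronic. A site nearest to a SNORA17 start on chromosome 14 (chr14:97729254-97729626), with Klhl1 as the nearest protein-coding gene, reached 30.3. It was followed by 4930485B16Rik (30.1), Gemin5 (26.5), Gm11891 (21.6), a site nearest to a SNORA17 start on chromosome 12 (18.6), Gm6994 in an intron of Enox1 (16.2), Ebf3 (13.3), Prpsap2 (13), Tmem179 (13) and Gm17566 in an intron of Prox1 (12.1). Each of these 10 also had a Pou4f3 peak in all 3 other Pou4f3 lists. The Pou4f pattern was present at 6 of them, and was absent at Gm11891, Prpsap2, Tmem179 and Gm17566. Of the 10 sites highest for Gfi1, 3 held the exact Gfi1 pattern: Rgs9, Ppp2r3a and Pou4f1. No site was among the 10 highest of both factors.

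The Gfi1 and Pou4f3 summits lay a median of 53 bp apart, and at most 50 bp apart at 103 sites (49.8%). The median was 71 bp near starts and 41 bp farther away, and 36 of 91 sites near starts (39.6%) had summits within 50 bp. Where all 3 factors met, the Gfi1 and Pou4f3 summits were a median of 37 bp apart. The joining rule bounds the spacing, since windows of 300 bp share a base only below 300 bp. At Ogfrl1 both summits fell on the same base, and at Gemin5 and Gm16440 they were 1 bp apart. Wide spacings inside the rule were those at Riok2 (287 bp), Kif2a (286 bp), Rras2 (277 bp) and Prr5 (265 bp), and among those just outside it were Isl1 (300 bp), Utp3 (301 bp), Tmem181b-ps (305 bp) and Dctpp1 (311 bp), which counted as Gfi1 alone. In all, 24 sites of Gfi1 alone had a Pou4f3 summit at 300 to 400 bp.

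**Figure D3:**
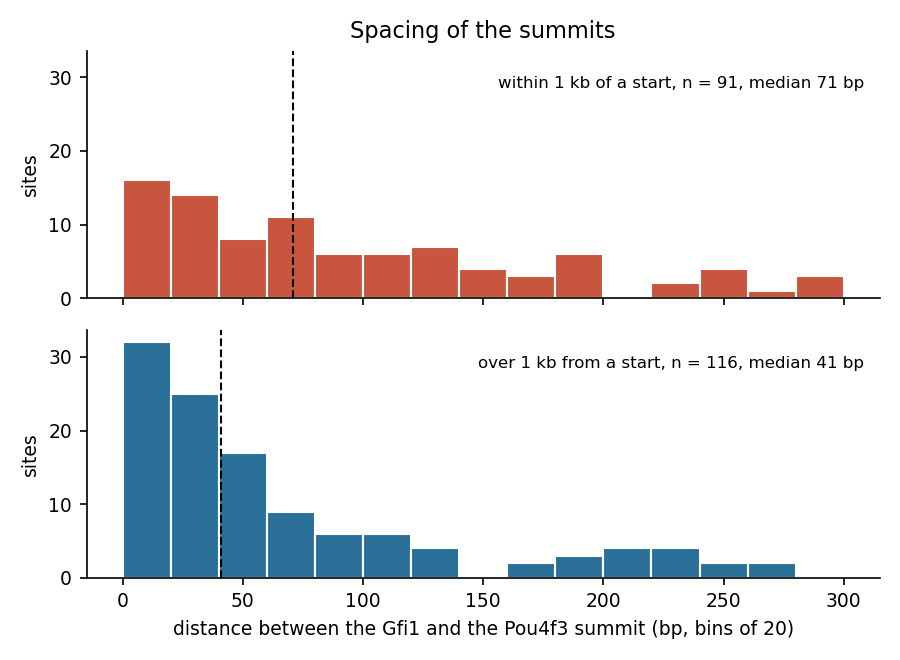
Distance between the Gfi1 and the Pou4f3 summit in bins of 20 bp for the 91 sites within 1 kb of a start (top) and the 116 sites farther away (bottom); dashed lines mark the medians of 71 and 41 bp. Sites away from starts pile up at short distances, and those near starts spread over the range that the joining rule allows.

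The other Pou4f3 lists show whether Pou4f3 had a peak at these sites in lines with other factor combinations; they did not enter the choice. In iPou4f3, 145 of 207 sites had a Pou4f3 peak (70%, 63.3 to 76.2), against 58.7% of all iGPA Pou4f3 sites. In iG+P the count was 157 (75.8%, 69.4 to 81.5), against 71.5%, and in iP+A 129 (62.3%, 55.3 to 68.9), against 48.7%. For Pou4f3 alone the 3 shares were 61.1% (60.3 to 61.9), 74.6% (73.9 to 75.3) and 45.7% (44.9 to 46.5). Where all 3 factors met they were 59.6% (55.2 to 63.9), 65.6% (61.2 to 69.7) and 72.8% (68.7 to 76.7). Most of the Gfi1 and Pou4f3 sites therefore had a Pou4f3 peak without the Gfi1 or the Atoh1 transgene. The interval lay above that of Pou4f3 alone for iPou4f3 and for iP+A and overlapped it for iG+P. The joined sites are wider than the 300 bp windows of Pou4f3 alone, and with only the Pou4f3 window matched, an alternative chosen after seeing the data, the iPou4f3 interval overlapped that of Pou4f3 alone (68.6%, 61.8 to 74.9, against 61.1%, 60.3 to 61.9), while that of iP+A stayed above it (61.8%, 54.8 to 68.5, against 45.7%, 44.9 to 46.5). The lists differ in length, from 17082 kept peaks in iP+A and 22433 in iPou4f3 to 32632 in iG+P, and with every list other than Gfi1 limited to its 15568 strongest peaks, which gave 222 sites, the order of the lines changed, to 71.6% in iPou4f3, 69.4% in iP+A and 64.9% in iG+P, so no order is read from the shares. At that equal length Pou4f3 alone had 60.1%, 49.8% and 62.1%.

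All 3 other lists held a peak at 101 sites (48.8%, 41.8 to 55.8), against 37% of all iGPA Pou4f3 sites, and the same share where all 3 factors met was 48.4% (44 to 52.9). A further 24 sites (11.6%) had a peak in iPou4f3 and iG+P but not in iP+A, against 15.2% of all iGPA Pou4f3 sites. In iG+P only there were 18 (8.7% against 13.8%), and in iG+P and iP+A 14 (6.76% against 5.39%). A peak in iPou4f3 only was at 10 (4.83% against 4.03%), in iPou4f3 and iP+A at 10 (4.83% against 2.45%) and in iP+A only at 4 (1.93% against 3.84%). No peak in any of the 3 was found at 26 sites (12.6%, 8.37 to 17.9), against 18.2% of all iGPA Pou4f3 sites. Away from starts 66 of 116 sites were in all 3 lists (56.9%, 47.4 to 66.1), and near starts 35 of 91 (38.5%, 28.4 to 49.2), and these intervals overlap. For Pou4f3 alone the corresponding shares were 37.2% (36.4 to 38.1) and 35.2% (32.8 to 37.6). Where all 3 factors met the order was reversed, with 46.4% (41.6 to 51.3) away from starts and 57.8% (46.9 to 68.1) near them. At the Gfi1 and Pou4f3 sites the share in iPou4f3 was alike in both groups, 69.8% and 70.3%. That in iP+A was 69.8% (60.6 to 78) away from starts and 52.7% (42 to 63.3) near them, intervals that overlap.

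**Figure D4:**
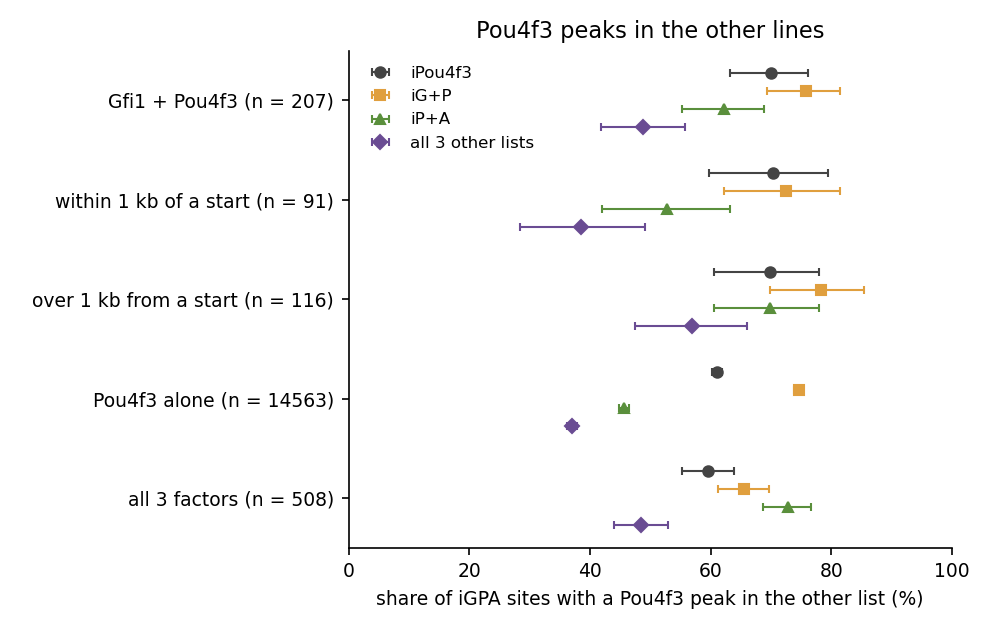
Share of iGPA sites with a Pou4f3 peak in iPou4f3, iG+P, iP+A or all 3, for the 207 Gfi1 and Pou4f3 sites, their 2 groups by distance to a start, Pou4f3 alone and all 3 factors; bars are 95% exact binomial intervals. The share in all 3 lists was 56.9% away from starts and 38.5% near them, with overlapping intervals. It was 37% for Pou4f3 alone and 48.4% where all 3 factors met.

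Presence in the other lists went with the Pou4f pattern and with the height of the iGPA Pou4f3 peak. Sites with the Pou4f pattern were in all 3 lists in 51 of 73 cases (69.9%, 58 to 80.1), and sites without it in 50 of 134 (37.3%, 29.1 to 46.1). Pou4f3 alone had 39.3% (38.3 to 40.4) and 33.5% (32.3 to 34.8), a smaller gap. Where all 3 factors met the shares were 64.2% (56.8 to 71.3) and 39.8% (34.5 to 45.3), close to those of the Gfi1 and Pou4f3 sites. Of 62 Gfi1 and Pou4f3 sites with an iGPA Pou4f3 fold of at least 5, 55 were in all 3 lists (88.7%, 78.1 to 95.3), against 74.6% (73.3 to 75.9) of Pou4f3 alone at that height. Of 145 sites below 5, 46 were (31.7%, 24.3 to 40), against 19.9% (19.2 to 20.7). In iP+A the sites below 5 had a share of 49.7% (41.3 to 58.1), against 30.8% (29.9 to 31.7) of Pou4f3 alone below 5, so the iP+A difference from Pou4f3 alone was also present among low peaks. The share below 5 was 51.4% (45.1 to 57.7) where all 3 factors met. The 26 Gfi1 and Pou4f3 sites in no other list all had folds below 5. Where a peak was present, its summit lay a median of 31 bp (iPou4f3), 28 bp (iG+P) and 33 bp (iP+A) from the iGPA summit. The median shift to iPou4f3 was 46.5 bp near starts and 20 bp away from them.

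Named sites give the range. At Gemin5 the Pou4f3 fold was 26.5 in iGPA, 28.8 in iPou4f3, 21.8 in iG+P and 18 in iP+A. At 4930485B16Rik it was 30.1, 26.4, 20.9 and 11.3 in the same order. At the SNORA17 site on chromosome 14 it was 30.3, 21.4, 13.4 and 10.4. These 3 sites were high in every line. Ebf3 had 13.3 in iGPA, 7.13 in iPou4f3, 7.88 in iG+P and 6.91 in iP+A, and Pou4f1 had 5.68, 4.75, 6.24 and 5.32. These 2 genes encode transcription factors of neurons. Id2 had 8.74, 4.64, 5.14 and 3.28. Folds depend on the depth and background of each list, so values of different lines are set side by side only, and no difference between lines is drawn from them. Epc2 had 5.83 in iGPA, 5.73 in iPou4f3 and 5.58 in iG+P, with no peak in iP+A. Panx1 had 3.83 in iG+P and no peak in iPou4f3 or iP+A.

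**Figure D5:**
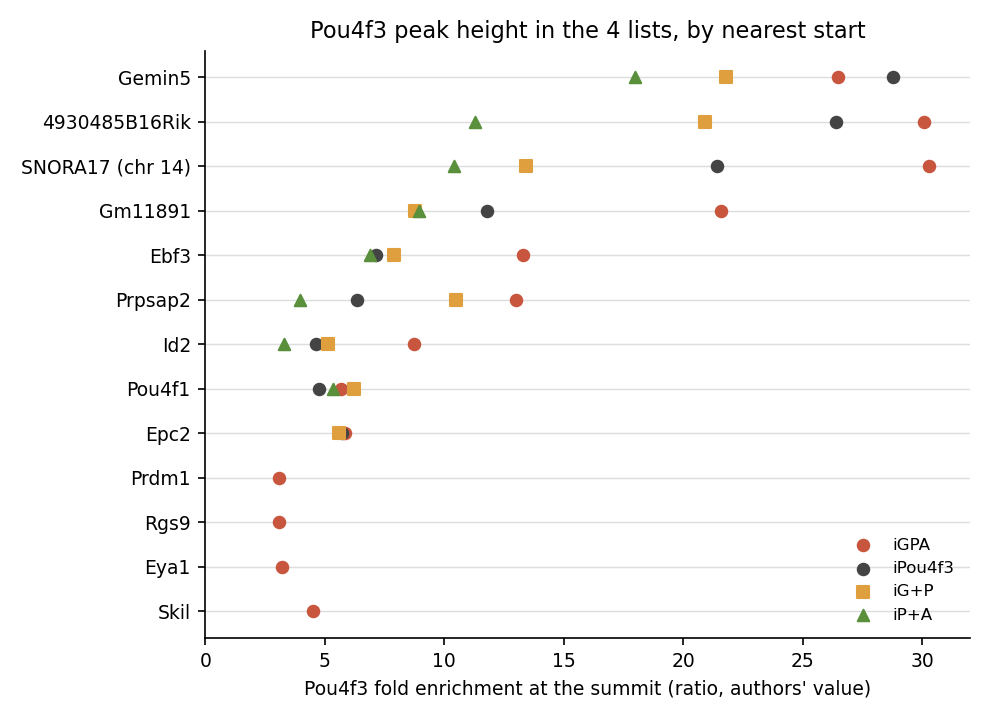
Pou4f3 fold enrichment (the authors' ratio) in the iGPA, iPou4f3, iG+P and iP+A lists at 13 named sites, labelled by the nearest start; a missing marker means that the list held no kept peak there. Gemin5 ranged from 18 to 28.8 over the 4 lists, whereas Prdm1, Rgs9, Eya1 and Skil had a marker in iGPA only.

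The highest Pou4f3 folds among the 26 sites in no other list were 4.51 at Skil, a repressor in TGF-beta signalling, and 4.51 at Vps53. Exd1, Gm5792, Ddx55, 2700049A03Rik, Usp7, Med13l, Zcwpw1 and Eya1 followed, between 3.69 and 3.2. The Med13l site was the one in a repeat, 233673 bp from the start. Rgs9, with a Gfi1 fold of 22, was also among the 26. The other Med13l sites, named after their values were seen, were in every list: the intronic one 62514 bp into the gene had Pou4f3 folds of 3.79 in iGPA, 2.97 in iPou4f3, 3.39 in iG+P and 2.72 in iP+A, and the one 360926 bp from the start had 10, 7.61, 4.6 and 4.08. These other Med13l sites both held the Pou4f pattern, which the repeat site lacked, so the repeat site differed from them in letters and presence. The site in the coding exon of Jun, a subunit of the AP-1 factor, had a Gfi1 fold of 4.62 and Pou4f3 folds of 2.77 in iGPA, 2.63 in iG+P and 2.83 in iP+A, with no peak in iPou4f3. The sites with both patterns were uneven too: Pou4f1 was in every Pou4f3 list, the 5S_rRNA site had 4.08 in iGPA, 4.71 in iG+P and 2.94 in iP+A, and Camk1g, a kinase gene, had 3.35 in iGPA and 3.06 in iG+P only.

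Atoh1 peaks in lines other than iGPA were present at 26 sites in the iP+A list (12.6%, 8.37 to 17.9), 22 in that of iG+A (10.6%, 6.78 to 15.6) and 10 in that of iAtoh1 (4.83%, 2.34 to 8.7). For Gfi1 alone the shares in the same lists were 9.5% (8.06 to 11.1), 15.1% (13.3 to 17) and 7.82% (6.5 to 9.3). At least 1 of these lists had a peak at 48 of the 207 sites (23.2%, 17.6 to 29.5), against 52% of all Gfi1 sites, a background that holds the sites with iGPA Atoh1. The share depended on the peaks used, at 39.9% with all called peaks and 12% with −log10 p of at least 10 in every list. For Gfi1 alone the share was 24.1% (22 to 26.4) and for Pou4f3 alone 5.79% (5.41 to 6.18). At the Gfi1 and Pou4f3 sites the iG+A share was 16.5% (9.53 to 25.7) near starts and 6.03% (2.46 to 12) farther away, with intervals that overlap. Gfi1 alone had 16.6% (13.8 to 19.7) and 13.9% (11.7 to 16.5), so the share near starts was like that of Gfi1 alone. The nearest kept iGPA Atoh1 summit was a median of 14180 bp from the Gfi1 and Pou4f3 sites, and it was under 1 kb at 32 of them. These distances were not computed for other classes, and the rule left out sites with a closer Atoh1 peak, so neither closeness nor distance is read from them. The closest were at Ccng2 (352 bp), Mir215 (355 bp), Tob2 (364 bp), Skil (375 bp) and Id2 (398 bp).

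Lists of genes for the inner ear, for known Gfi1 roles and for other lineages were compared with the nearest genes of the sites. A gene counted as met when the nearest start of a site was its own. Of 48 hair cell genes, 1 was met (Pou4f1), where all Gfi1 sites met 12 and all Pou4f3 sites 31. Among genes of blood formation and known Gfi1 targets, Id2 was met. Of 49 neuronal genes, 1 was met (Ebf3), with 17 and 35. Of 33 other lineage regulators, 1 was met, Eya1, a cofactor needed for inner ear formation, with 11 and 20. Of 21 Notch and Hes genes 0 were met, with 5 and 12, of 24 pluripotency genes 0, with 3 and 14, and of 41 Hox genes 0, with 3 and 8. The sites met 200 of 33924 annotated genes, all Gfi1 sites 2492 and all Pou4f3 sites 9538, which sets the scale of these counts. With so few genes met, neither scarcity nor enrichment of listed genes is read from them. The Eya1 site lay in a UTR 138 bp into the gene, with a Gfi1 fold of 3.96 and a Pou4f3 fold of 3.2, and no other Pou4f3 list held a peak there. The Id2 site (chr12:25781608-25781928) had a Gfi1 fold of 5.28. The Ebf3 site had 4.62 for Gfi1, and the Pou4f1 site 10.1. Nearest start is an assignment by distance, and no measure of expression enters here.

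The Gfi1 list was the shortest of the 9, with 3012 kept peaks, and the iGPA Pou4f3 and Atoh1 lists had 18751 and 26231. The files hold no read counts, so the total depth is unknown. The background that the fold and the −log10 p of a peak imply was most often 3.55 fragments in the Gfi1 list, 5.87 in the iGPA Pou4f3 list and 6.49 to 8.3 in the others. It was over 2 times the usual level in the Gfi1 or the iGPA Pou4f3 list at 8 of the 207 sites: Mir760, Gm13247, Gm8178, Gm13148, Akap9, Tubgcp3, Gm11107 and Gm16440, named here after their values were seen. Mir760, Akap9 and Tubgcp3 had no Pou4f3 peak in another line. Without these 8, the shares with Pou4f3 or Atoh1 peaks in other lines stayed within the intervals above.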

How the data were processed

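Peak lists of 9 line and antibody combinations were analysed. Per the labels and the study's methods, the authors trimmed reads (Trimmomatic), aligned them to mm9 (Bowtie 2), removed duplicates (Picard), low mapping quality (SAMtools) and blacklisted regions (bedtools), and ran MACS 2 once per line and antibody, with replicate libraries pooled and pooled input as control. Versions are not given in the sources used here. The deposited lists hold the authors' fold enrichment, a ratio of summit fragments to local background, and a −log10 p. The deposited display score and the score column of the authors' summit lists, whose definition is not stated, were not used. Summit lists keep 64.5% to 85.9% of the called peaks by a filter that is not stated, and these kept peaks were used.

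Windows of 300 bp on summits were joined at 1 bp. Starts and exons came from GENCODE vM1 and letters from NCBIM37 (mm9), whose chromosome lengths hold every summit. The strongest peak of each factor gave the summits of a site. Spacing was instead taken between the closest Gfi1 and Pou4f3 summits, which can differ only where a factor had more than 1 peak. A tandem repeat was called where 80% of positions in 100 bp equalled the position 1 unit further on. Shares have exact Clopper-Pearson 95% intervals (scipy 1.17.1), for counting error only. No test was made, since replicates were merged. Joining, matching and pattern search were tested on simulated data. The members, gene lists and patterns were chosen with earlier results of these data known. Named sites were the 10 highest by Gfi1 fold, by Pou4f3 fold, by Pou4f3 fold with and without the other lists, and by Gfi1 fold near starts outside repeats, the sites of listed genes, sites with both patterns and the 3 smallest and largest spacings; sites on 1 autosome were not described, and 1 further site is not reported here.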

Additional observations from a re-analysis of the deposited data

Results flagged for a closer look

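Peaks that the authors called but did not keep also lay at some of the sites. In iGPA itself, 13 of the 207 sites (6.28%, 3.39 to 10.5) overlapped a called Atoh1 peak that was not among the kept ones, against 4.04% (3.1 to 5.17) of Gfi1 alone and 0.735% (0.603 to 0.887) of Pou4f3 alone. Their Atoh1 folds ran from 2.2 to 3.69, the highest at Panx1, and 2 of the 13 lay within 1 kb of a start. With all called peaks used, such sites hold Atoh1 and leave the group.

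Of the sites without a kept Pou4f3 peak in another line, a called one was present at 16 of 62 in iPou4f3 (25.8%, 15.5 to 38.5), at 10 of 50 in iG+P (20%, 10 to 33.7) and at 18 of 78 in iP+A (23.1%, 14.3 to 34). For Pou4f3 alone these shares were 1.7% (1.38 to 2.07), 2.67% (2.18 to 3.25) and 2.51% (2.17 to 2.87). The filter behind the kept lists is not stated, and its part in these differences was not tested.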

How the results depend on the processing

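Of 139 alternative values for the group, 113 stayed within the interval of the value reported (for the number of sites, within 1.5 times) and 26 moved. With windows of 100 bp, the share in iG+P was 65.7%, in all 3 other lists 41.7%, in none 18.3%, and the median spacing 32 bp; with 1000 bp, 32% had an Atoh1 peak in another line and the spacing was 88.5 bp. With all called peaks (293 sites) 68.3% were in iG+P, 39.9% had an Atoh1 peak elsewhere and 27% the Pou4f pattern. With −log10 p of at least 10 in every list, 83 sites remained: 78.3% were in iPou4f3, 12% had Atoh1 elsewhere, 28.9% were near a start, 44.6% had the Pou4f pattern and the spacing was 35 bp. At equal list length 64.9% were in iG+P and 69.4% in iP+A. Without Gfi1 peaks in short repeats, 0% were in repeats by construction. Requiring 150 bp shared gave a spacing of 37 bp. Of the 207 sites of the main setting, 58.5% lay within 5 kb of a start. Other letters gave 4.83% for Pou4f (no mismatch), 39.1% for Gfi1 (AATCACNGC, 1 mismatch) and 22.2% for the E-box. The main patterns in 100 bp around the summit gave 26.1%, 2.42% and 0.483%. Neither setting was computed for flanks or other classes, so these shares have no background and are not read as content of either motif. For the other changes the cause was not tested.

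No paired analysis was possible because the lists were called on merged replicates; leaving out a replicate was not possible for the same reason. At −log10 p of at least 10 the all-lists share was 50.6% (39.4 to 61.8), against 29.3% for Pou4f3 alone and 48.8% (41.2 to 56.6) where all 3 factors met. Matching only the Pou4f3 window of 300 bp, an alternative chosen after the data were seen as was leaving out the 8 sites of high background, moved no value of the group beyond its interval. With that window the iPou4f3 interval overlapped that of Pou4f3 alone (68.6%, 61.8 to 74.9, against 61.1%, 60.3 to 61.9).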
